A study of Mus musculus with 2 samples.

Results

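The microRNA genes described here are Mir143, Mir145a and Mir145b, 3 of the 2202 annotated mouse microRNA genes that were counted. They were chosen by name from the gene annotation, with earlier results of these data known, and all 3 had an entry in both tables of counts. The cells were myocytes obtained by letting C2C12 differentiate for 72 h. C2C12 is a myoblast line of the C3H mouse strain, which came from thigh muscle after a crush injury, and it is supplied by a cell bank. Short RNA from 2 biological replicates of this single group was sequenced, and the labels name no treatment, genotype change or undifferentiated control. Each replicate has a separate biosample in the labels, which leave unsaid if it was a separate differentiation. The SDs below measure the spread of these libraries, part of which may be technical, and the p-values set differences against counting error only.

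Mir143 and Mir145a are neighbours that are transcribed together as 1 primary transcript and then cut into separate hairpins. They are best known from smooth muscle, where serum response factor and its coactivator myocardin switch the transcript on. There, miR-145 represses Klf4 and Klf5, transcription factors that oppose the contractile state. Both are also abundant in fibroblasts and other mesenchymal cells and scarce in most epithelia. Mir145b is a separately located gene whose product resembles that of Mir145a.

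The first 2 genes lie 1371 bases apart, start to start, on the minus strand of chromosome 18 (mm10). Mir143 (ENSMUSG00000065445.3, 61649196 to 61649258) comes first in the direction of transcription and Mir145a (ENSMUSG00000065592.2, 61647825 to 61647894) second. In the GENCODE M21 annotation neither hairpin overlaps another gene. The long noncoding RNA gene Carmn ends 367 bases upstream of Mir143 on the same strand, and the long noncoding RNA gene Bvht ends 353 bases beyond Mir145a on the plus strand. RefSeq draws Carmn longer, from 61645878 to 61665538, so that both hairpins fall inside it. Mir145b (ENSMUSG00000098366.1, 69022199 to 69022273, minus strand) lies 7.37 megabases away and overlaps no other annotated gene. Its hairpin has at most 17 bases in a row in common with that of Mir145a.

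**Figure D1:**
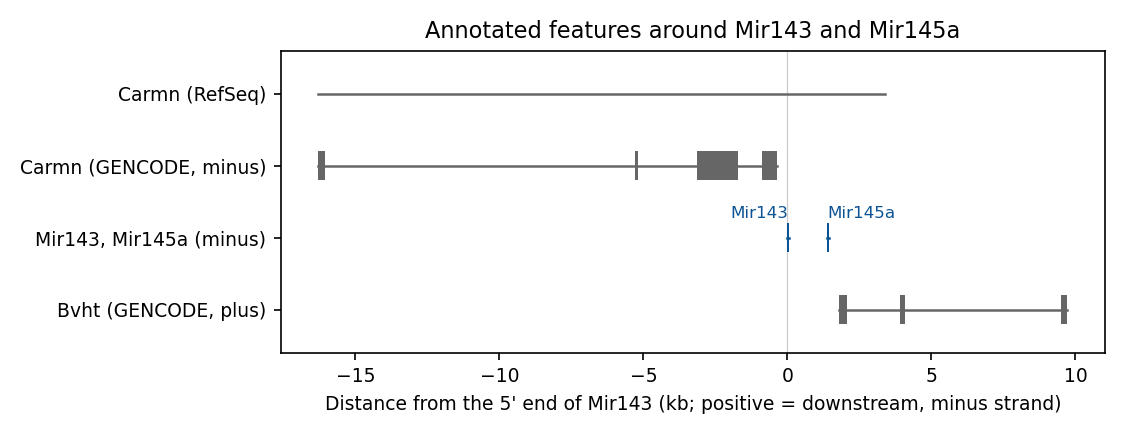
Map of the Mir143 and Mir145a locus, with distance in kb from the 5′ end of Mir143 on the x axis (positive values lie downstream on the minus strand). Boxes are exons and lines are genes. The hairpins stand between the GENCODE genes Carmn and Bvht, and inside the longer RefSeq version of Carmn, for which the gene span alone is drawn.

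By counts assigned to single genes, Mir143 was one of the most abundant microRNA genes of these myocytes. It had 351799 counts in replicate 1 and 244123 in replicate 2. Scaled to 1000000 counts assigned to microRNA genes (CPM), this was 46403 and 24746 in the respective libraries, with a mean of 35574 ± 15314 CPM (SD, n = 2). Mir143 ranked 5 in replicate 1 and 7 in replicate 2. Counting error was small beside this spread: the exact 95% binomial interval of its share of assigned counts ran from 4.63% to 4.66% in replicate 1 and from 2.46% to 2.48% in replicate 2. Reads carried no molecular identifiers, so such intervals cover counting error only. Reads that mapped to more than 1 place, 22.0% of all reads in replicate 1 and 17.9% in replicate 2, are in no gene's count. The ranks and shares leave out what such reads would add to genes with several copies.

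Mir145a, although cut from the same primary transcript, was found at a far lower level. Replicate 1 held 14383 counts of it and replicate 2 held 24557, which is 1897 and 2489 CPM and a mean of 2193 ± 419 CPM (SD, n = 2). It ranked 45 in replicate 1 and 31 in replicate 2. Its exact 95% interval was 0.187% to 0.193% of assigned counts in replicate 1 and 0.246% to 0.252% in replicate 2. Levels of different genes are compared as counts per hairpin, without division by length, since 1 read spans a whole mature microRNA. Hairpins can also differ in ligation and mapping, which was not tested. A ratio of counts between genes, here and below, therefore need not be a ratio of molecules. In both libraries Mir145a stood below Mir143 by more than the spread between the replicates of either gene.

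Mir145b had 0 counts on either strand in both libraries. A count of 0 allows up to 3 counts, a one-sided 95% limit, which is 0.396 CPM in replicate 1 and 0.304 CPM in replicate 2. At this depth the gene was not detected. The other microRNA gene within 500 kb of it, Mir6356, also had 0 counts in both libraries.

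Together, Mir143 and Mir145a took 4.83% of the assigned counts in replicate 1 and 2.72% in replicate 2 (3.78% ± 1.49, SD, n = 2). Nearly all of this was Mir143. Over all reads of a library, including those that were unmapped or assigned to no gene, Mir143 took 2.29% and 1.32% and Mir145a took 0.0937% and 0.133%. The locus was read from 1 strand: Mir143 had 0 antisense counts in both libraries, and Mir145a had 0 in replicate 1 and 1 in replicate 2. Neither hairpin shares 20 bases in a row with a microRNA hairpin elsewhere in the annotation, so their reads fit no other annotated hairpin along that length. The counts are of whole hairpins, and the 5p and 3p arms were not separated.

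The range of Mir143 overlapped those of several other abundant genes. Its CPM range over the replicates overlapped those of Mir21a (39501 to 82317 CPM), Mir99a (27699 to 29486 CPM), Mir23a (24031 to 29161 CPM) and Mirlet7b (18538 to 27399 CPM). Within each library, Mir21a stood above Mir143, with 1.77 times its counts in replicate 1 and 1.60 times in replicate 2, and Mir23a stood below it. Mir99a and Mirlet7b were below Mir143 in replicate 1 and above it in replicate 2. Mir22, next above Mir143 in mean, did not overlap it, with 47786 and 61207 CPM. In replicate 1 the gap was small, with Mir143 at 46403 CPM. Mir23a shares sequence with Mir23b and its count is uncertain. By distance of log2(CPM + 1) over the 2 libraries, the genes with the most similar levels were Mir23a (distance 0.67), Mir99a (0.67), Mir21a (1.07) and Mirlet7i (1.15).

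Mir145a stood among genes of middle rank whose ranges also overlapped. The next above it in mean were Mir28a (2229 ± 955 CPM, SD, n = 2) and Mirlet7d (2240 ± 827 CPM), and the next below were Mir298 (1802 ± 1014 CPM) and Mir106b (1695 ± 579 CPM). None of these 4 differed from Mir145a beyond the spread of the replicates, and Mir28a, which shares sequence with another hairpin, has an uncertain count. The genes nearest to Mir145a by the same distance were Mir210 (0.31), a microRNA induced by low oxygen, Mir93 (0.49), Mir30e (0.52) and Mir214 (0.52). With 2 libraries, such a distance says that levels are alike and nothing of shared control.

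Set against Mir206 and Mir133b, which are tied to skeletal muscle, Mir143 had fewer counts than Mir206 and more than Mir133b. The Mir1a and Mir133a genes were not compared here, since their reads that fit more than 1 place are missing from the counts. The place of Mir143 among all skeletal muscle microRNAs is therefore not shown. Mir206 had 7.35 times the counts of Mir143 in replicate 1 and 16.8 times in replicate 2. Mir143 had 3.41 times the counts of Mir133b in replicate 1 and 2.34 times in replicate 2, although Mir133b shares sequence with the Mir133a genes and may be undercounted. The ratio of Mir206 to Mir145a was 180 in replicate 1 and 167 in replicate 2, closer between the libraries than the ratio of Mir206 to Mir143.

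The 2 detected genes of the locus went in opposite directions between the replicates. Mir143 was 1.88-fold higher in replicate 1 (log2 ratio 0.91), and Mir145a was 1.31-fold higher in replicate 2 (log2 ratio of replicate 1 over replicate 2, −0.39). By an exact two-sided binomial test of counts, with Benjamini-Hochberg adjustment over the 314 genes with at least 10 counts in each library, both differences exceeded counting error. The adjusted p was 6.69e-150 for Mir145a, and the p of Mir143 lay at the limit of 1e-300 below which no value was written. Such calls were common: 66.6% of the 314 genes passed this test, 38.2% as higher in replicate 1 and 28.3% as higher in replicate 2. This lean, 120 genes against 89, depended on the scaling: with totals without Mir206 it was 104 genes higher in replicate 1 and 111 in replicate 2. The test compares these libraries and no conditions. In bulk RNA, fewer cells of a type and less RNA per cell cannot be told apart.

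The size of these differences was within what other genes showed. Of the 314 genes, 233 had a smaller absolute log2 ratio than Mir143 and 123 a smaller one than Mir145a, against a median of 0.51. Among the 65 genes whose mean reached 1000 CPM, 53 had a smaller absolute log2 ratio than Mir143 and 24 a smaller one than Mir145a, against a median of 0.46. The coefficient of variation was 43.0% for Mir143 and 19.1% for Mir145a, and the biological coefficient of variation over all detected genes, estimated by edgeR, was 0.42.

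**Figure D2:**
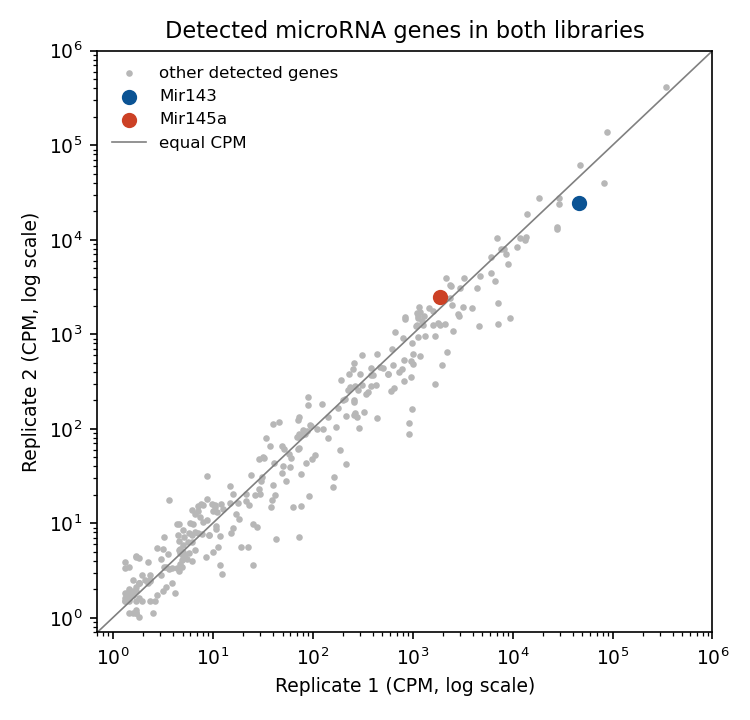
CPM of the 314 detected genes in replicate 1 (x axis) and replicate 2 (y axis), both on log scales, with the line of equal CPM. Mir143 lies below the line at 46403 and 24746 CPM, and Mir145a lies above it at 1897 and 2489 CPM.

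Because both hairpins are counted in the same library, their ratio does not depend on how libraries are scaled. Mir143 had 24.5 counts for each count of Mir145a in replicate 1 and 9.94 in replicate 2 (mean 17.2 ± 10.3, SD, n = 2). As a share of the counts of both genes, Mir143 made up 96.1% in replicate 1 (exact 95% interval 96.0% to 96.1%) and 90.9% in replicate 2 (90.8% to 91.0%). The ratio was 2.46-fold higher in replicate 1 than in replicate 2, with a 95% interval of 2.41 to 2.51 that covers counting error only. Fisher's exact test on the 4 counts (two-sided) gave a p at the limit of 1e-300. Mir143 had the higher count of the pair in both libraries, and the factor differed between them.

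Hairpin base composition also varied with the difference between the libraries. Across the 314 genes, which are not independent replicates, the log2 ratio of replicate 1 over replicate 2 had a Pearson correlation of −0.27 with the GC content of the hairpin. Mir143 has 55.6% GC and Mir145a 48.6%. The straight line through all genes took up 7.39% of the variance of the log2 ratio. It gave a log2 ratio of 0.12 for Mir143 and 0.29 for Mir145a, the opposite order to the measured values. Whether base composition had a part in the difference of these 2 genes was not tested. With this trend removed, a step chosen after the data were seen, the ratio of Mir143 to Mir145a was 2.77-fold higher in replicate 1.

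The ratio was set beside those of other linked genes, taken as neighbouring detected microRNA genes on 1 strand with starts within 10 kb. There were 60 such pairs, Mir143 and Mir145a included. The median absolute log2 ratio within a pair was 2.83, or 1.63 over the 30 pairs in which neither gene shares 20 bases with a hairpin elsewhere, and that of Mir143 to Mir145a, averaged over the libraries, was 3.96. In size of this ratio the pair stood at position 18 of 60. Next above it was Mir322 with Mir503 (absolute log2 ratio 4.06), an X-linked pair tied to cell cycle exit in myoblasts, and next below it Mir467d with Mir669c (3.83). In 51 of the 60 pairs, this one included, the same gene had more counts in both libraries (27 with the upstream gene ahead and 24 with the downstream gene ahead).

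In how far the ratio moved between the libraries, Mir143 and Mir145a also stood at position 18 of 60. Their log2 ratio was 4.61 in replicate 1 and 3.31 in replicate 2, a shift of 1.30, and the median absolute shift over all pairs was 0.64. Members of a pair went opposite ways in 27 of 60 pairs (45.0%). Among those 27 pairs, 14 shifted further than Mir143 and Mir145a. How often unlinked genes go opposite ways was not tested, so the share of 45.0% has no baseline and says nothing of linkage. Unlike the shift, the direction of a gene depends on the scaling to totals. Some members barely differed between the libraries, such as Mir100 with a log2 ratio of 0.011. Some genes, such as Mir20a, enter more than 1 pair, so the pairs are not independent. In the other 30 of the 60 pairs at least 1 gene shares such a stretch and has an uncertain count. When such genes were left out and the rest paired anew with their nearest neighbours, there were 31 pairs, in which Mir143 and Mir145a stood at position 5 by ratio and 8 by shift. With at least 100 counts per gene in each library they stood at position 9 by ratio and 12 by shift of 45 pairs.

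**Figure D3:**
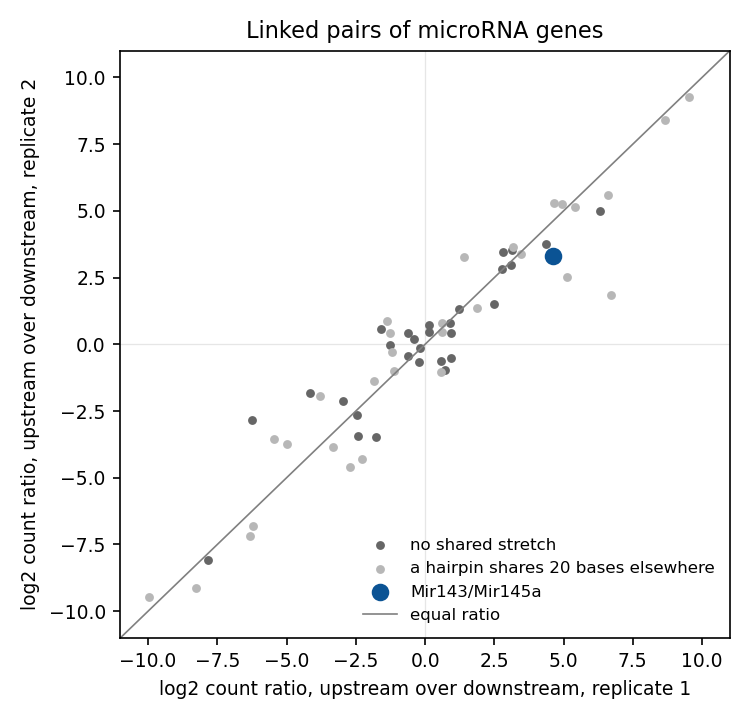
Log2 ratio of counts, upstream over downstream gene, for 60 linked pairs in replicate 1 (x axis) and replicate 2 (y axis), with the line of equal ratio. Light points mark pairs with a gene that shares 20 bases with a hairpin elsewhere. The pair Mir143/Mir145a lies below the line at 4.61 and 3.31.

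The nearest other expressed microRNA gene on the chromosome was Mir378a, whose start lies 249990 bases from that of Mir145a, in the metabolic coactivator gene Ppargc1b. Its level was 87515 CPM in replicate 1 and 138480 CPM in replicate 2 (log2 ratio −0.66), so that it went the other way from Mir143. Because of a stretch in common with another hairpin, this count is uncertain. Gm25301, on the strand opposite Mir378a, had 2 counts in each library.

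Among 15 microRNA genes linked to mesenchymal cells, 13 were detected, beside 314 of all 2202 genes. Their median was 2844 CPM, beside 53.1 CPM over all detected genes. The list was written with earlier results of these data known and holds the members themselves, so its high median is a description only. By mean CPM, Mir143 held position 3 in this list, after Mir21a and Mir22, and Mir145a position 8. The pair contributed 21.4% of the counts of the list in replicate 1 and 16.1% in replicate 2. Mir145b and Mir10b had 0 counts in both libraries. Of the 13 genes, 7 passed the binomial test as higher in replicate 1 and 5 as higher in replicate 2, beside 38.2% and 28.3% of all detected genes. The median log2 ratio of the 13 was 0.09, as it was over all detected genes. The list therefore did not go 1 way as a whole. Mir34c, a target of p53, was higher in replicate 1 (7130 and 1298 CPM), as Mir143 was. Mir214 (2360 and 3329 CPM) and Mir152 (313 and 600 CPM) were higher in replicate 2, as Mir145a was.

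**Figure D4:**
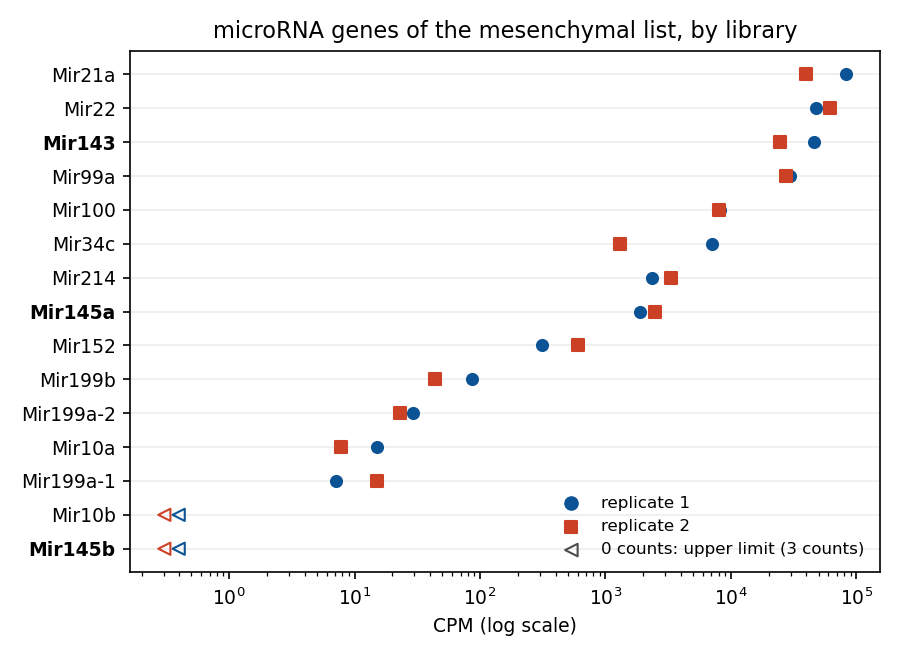
CPM (log scale) of the 15 genes of the mesenchymal list, 1 row per gene, with replicate 1 as circles and replicate 2 as squares. Open triangles mark 0 counts at the limit that 3 counts would give. Mir143 stands at position 3 from the top, Mir145a at position 8 with 1897 and 2489 CPM, and Mir145b has 0 counts.

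Of 8 microRNA genes tied to the contractile state of smooth muscle 5 were detected, beside 314 of all 2202 genes. Among uniquely placed counts, Mir143 and Mir145a held nearly all of the list's 366369 counts in replicate 1 and 268841 in replicate 2. Mir10a, of the Hoxb cluster, had 15.2 CPM in replicate 1 and 7.81 CPM in replicate 2. Mir1a-1 had 23 and 28 counts, Mir1a-2 had 32 and 18, Mir133a-1 had 9 and 28, and Mir133a-2 had 8 and 10. These 4 genes share sequence with their own copies, so reads of miR-1a and miR-133a that fit more than 1 place are missing from the counts and their levels are uncertain. Of the 5 detected genes, 3 passed the test as higher in replicate 1 and 1 as higher in replicate 2, beside 38.2% and 28.3% of all detected genes, and Mir1a-1 did not pass (adjusted p = 0.917, exact binomial test with Benjamini-Hochberg adjustment).

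MicroRNAs tied to the proliferating state of smooth muscle were all detected, 9 of 9, beside 314 of all 2202 genes. Their median was 469 CPM, beside 53.1 CPM over all detected genes and 11.5 CPM over the 5 detected genes of the contractile list. The contractile median is the value of Mir10a, and that list holds the Mir1a genes, whose counts are uncertain. By share of assigned counts, the proliferative list took 9.85% in replicate 1 and 4.76% in replicate 2. The contractile list took 4.83% and 2.73%. Both smooth muscle lists were written with earlier results of these data known, so these values are a description only. The proliferative list was led by Mir21a, which had 1.77 times the counts of Mir143 in replicate 1 and 1.60 times in replicate 2. Mir31 followed with 9340 and 1498 CPM, Mir24-2 with 2140 and 3952 CPM, and Mir221 with 3915 and 1894 CPM. Mir222 had 501 and 437 CPM and Mir24-1 had 202 and 199 CPM. Mir26a-2 (73.9 and 62.8 CPM), Mir146 (5.54 and 4.16 CPM) and Mir26a-1 (1.85 and 4.26 CPM) were low. The Mir24 and Mir26a genes and Mir146 share sequence with other hairpins and have uncertain counts. Passing the test were 5 genes as higher in replicate 1 and 2 as higher in replicate 2, beside 38.2% and 28.3% of all detected genes. The median log2 ratio was 0.23, against 0.09 over all detected genes.

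Markers of skeletal muscle and of other cell types were set beside these levels. Of 8 skeletal muscle genes 6 were detected, beside 314 of all 2202 genes. The list made up 35.5% of replicate 1 and 42.8% of replicate 2. Nearly all of this was Mir206, with 340840 CPM in replicate 1 and 416790 CPM in replicate 2. Mir499 had 564 CPM in replicate 1 and 378 CPM in replicate 2, and Mir208b had 260 and 495 CPM. The Mir1a and Mir133a genes of this list have uncertain counts, as given above. Of the 7 epithelial genes 2 were detected. Over all 7, 81 counts were found in replicate 1 and 69 in replicate 2, with Mir200a and Mir429 at 0. The 6 neural genes had 0 counts in replicate 1 and 1 in replicate 2, but all 6 share sequence with their own copies, so their level is uncertain. Endothelial genes, Mir126a and Mir126b, made up 0.0219% of replicate 1 and 0.00445% of replicate 2. Nearly all of this was Mir126a, which passed the test as higher in replicate 1 (217 and 42.9 CPM), as Mir143 did, while Mir126b had 14 and 16 counts and did not pass (adjusted p = 0.767, exact binomial test). The 6 blood genes, of which 3 were detected, took 0.0756% in replicate 1 and 0.0455% in replicate 2. Most of these counts were Mir155, with 4934 of 5728 in replicate 1 and 2676 of 4485 in replicate 2. Mir155 (651 and 271 CPM) and Mir451a (11.9 and 3.65 CPM) passed the test as higher in replicate 1. Mir142 had 89.0 and 178 CPM and passed as higher in replicate 2. Mir144 had 26 and 7 counts, Mir150 had 1 and 13, and Mir223 had 2 and 1. Whether RNA of other cells had a part in the level of Mir143 was not tested.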

How the data were processed

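The authors deposited, for each library, a table of whole-number read counts per microRNA gene, not normalized as far as the values show. Per the notes deposited with the tables, reads were placed on mm10 with GENCODE M21 as annotation. Adapters were trimmed, per the labels' protocols. The aligner is not given in the sources used here, nor is the counter. Sense-strand counts were used. Assigned counts were 7581366 out of 15349205 reads in replicate 1 and 9865298 out of 18450359 in replicate 2. The 4 entries for reads of no gene stayed out of totals and tests.

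All 2202 identifiers matched GENCODE M21. CPM was computed over assigned counts, and genes with 10 or more counts in each library were called detected. Between libraries each detected gene was compared by an exact binomial test (scipy 1.17.1) and Benjamini-Hochberg adjustment, at a threshold of 0.05. This was tried on simulated counts that held counting error only, which leaves out the spread between replicates. The coefficient of variation came from edgeR 4.0.16 with an intercept-only design. With 1 group there was no test between conditions. Exact intervals are Clopper-Pearson, and that of the ratio of ratios is Wald. Hairpin sequences were searched for shared stretches on both strands, and genes overlapping at the same place were not counted as sharing. Mature sequences of the 3 genes, and genes with the same seed, were not used here.

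The members, lists and tests were chosen with earlier results of these data known. The genes named were the 3 members, the 4 detected genes nearest in level to each detected member, the genes of both smooth muscle lists, the linked pairs next in ratio and microRNA genes within 500 kb. Genes next in rank, those of the mesenchymal list and those set against Mir143 (Mir206, Mir133b) were chosen after their values were seen.

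Alternatives were edgeR's TMM factors, DESeq2 1.42.0 size factors, all reads or totals without Mir206 as denominator, either-strand counts, minimums of 1 and 100 counts, other pair distances, pairs without shared sequence and each replicate left out. Removal of the GC trend was added after the data were seen.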

Additional observations from a re-analysis of the deposited data

Results flagged for a closer look

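Reads that mapped to more than 1 place, from anywhere in the genome, are a signal outside the counts of any gene. They numbered 3378438 in replicate 1 and 3295854 in replicate 2. What part of them, if any, belongs to miR-145 was not tested. The hairpins of Mir145a and Mir145b have no more than 17 bases in a row in common.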

How the results depend on the processing

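Of 57 alternative values, 50 kept their direction and call, moved within 1 SD of the replicates or, for counts of genes and positions, stayed within 1.5 times, and 7 moved further. Part of the 50 could not have moved. The 7 values of Mir145b rest on 0 counts on either strand. With n = 2, a left-out replicate always lies within 1 SD of the mean. A minimum count cannot change the log2 ratio of a gene that passes it. No direction of Mir143 or Mir145a between the replicates reversed in any of the 8 alternatives run for each: the log2 ratio ranged from 0.73 to 0.99 for Mir143 and from −0.57 to −0.39 for Mir145a. Mean levels moved with the denominator. With all reads as denominator Mir143 had 18076 and Mir145a 1134 per 1000000 reads, and with totals without Mir206 they had 56414 and 3573. Left-out replicates gave 24746 to 46403 CPM for Mir143, 1897 to 2489 CPM for Mir145a and 9.94 to 24.5 for their ratio. The pair's position by ratio was 5 of 31 without hairpins that share 20 bases and 9 of 45 with a minimum of 100 counts, and its position by shift was 8 of 31 without such hairpins; fewer pairs enter these orders. The number of genes called ranged from 166 to 227, with 103 to 127 higher in replicate 1 and 62 to 111 in replicate 2. No paired analysis was possible because the series holds 1 group. Depth limits Mir145b, whose count of 0 leaves room for levels under 0.396 CPM in replicate 1 and 0.304 CPM in replicate 2.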
